A study of Mus musculus with 21 samples.

Results

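The genes described here make, move or store cholesterol, control its synthesis through the transcription factor SREBP2, or act on its uptake. They are 27 genes chosen by symbol from the 40838 rows of each of 2 count tables, and all 27 passed the filter on low counts in both tables. Of the 27, 5 act in the mevalonate steps (Acat2, Hmgcs1, Mvk, Pmvk and Mvd), 3 in the prenyl diphosphate steps (Idi1, Fdps and Ggps1) and 3 in the steps through squalene to lanosterol (Fdft1, Sqle and Lss). A further 8 turn lanosterol into cholesterol (Cyp51, Tm7sf2, Msmo1, Nsdhl, Hsd17b7, Ebp, Sc5d and Dhcr7). The other genes are 4 that encode SREBP2 and its regulators (Srebf2, Scap, Insig1 and Insig2) and 4 of uptake, transport and storage (Npc1, Stard4, Mylip and Soat1).

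RNA with poly(A) tails was sequenced from mouse embryonic stem cells in 21 libraries and 8 groups. One table held cells with LbNOX and cells with a vector, 3 libraries each, in the medium SL. LbNOX is a bacterial oxidase that turns NADH into NAD+. The other table held the lines SLC16A1 clone 1, SLC16A1 clone 2 and chr8A, with 2 libraries each in the medium SL2i and 3 each in SL. Each line was kept in the medium named in its label, read from field usage and the growth protocol as serum with leukemia inhibitory factor (LIF) for SL, and as SL with inhibitors of GSK3B and MEK for SL2i. All 8 groups shared 48 h in medium with pyruvate at 0.2 mM and dialyzed serum at 10%. Slc16a1 encodes MCT1, a carrier of pyruvate and lactate. Each clone is 1 line, and chr8A was read as their control line. The sources used here do not say how the clones were altered, what chr8A was changed at or how LbNOX was expressed. No label ties replicates to separate cultures, so the p-values reflect only how these samples varied among themselves, and that variation may be technical.

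Cells make cholesterol from acetyl-CoA through mevalonate, isoprenoid diphosphates, squalene and lanosterol. When sterols in the endoplasmic reticulum run low, the escort protein SCAP carries SREBP2 to the Golgi, where proteases release the part that enters the nucleus and binds the promoters of synthesis and uptake genes. When sterols are plentiful, INSIG proteins hold SCAP and SREBP2 back. Serum lipoproteins are the other source of cholesterol for cells in culture.

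Total counts were 9784408 to 10908368 per SL2i library, 15802072 to 30145771 per SL library of the same table and 16521594 to 30008895 in the LbNOX table. The SL2i libraries were thus the shallower ones and were 2 rather than 3 per line, and medium and library set cannot be told apart. All 10 markers of embryonic stem cells reached 1 CPM (counts scaled by library size and edgeR's TMM factors) in every group. Their summed level was not steady, at 7500 to 8153 CPM in the SL2i libraries and 4890 to 5192 CPM in the SL libraries of the same table. In the LbNOX table it was 4987 to 5634 CPM. Slc16a1, the gene in the clones' label, had 122 and 123 CPM in SL2i clone 1, 78.7 and 78.5 in SL2i clone 2, and 157 and 167 in SL2i chr8A. In SL it had 168, 182 and 162 CPM in clone 1, 92.8, 91.4 and 96.5 in clone 2, and 195, 201 and 198 in chr8A, so every clone library lay below every chr8A library of its medium. An mRNA level does not measure the transporter protein. These are bulk samples, in which fewer cells of a type and less RNA per cell cannot be told apart.

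Of the 27 genes, 9 shared at least 5% of their 30-base words with another gene of the reference, so their values are uncertain. They were Acat2 (44.0%), Fdft1 (32.2%), Fdps (28.0%), Idi1 (27.2%), Ggps1 (15.4%), Tm7sf2 (13.5%), Hmgcs1 (13.2%), Scap (11.3%) and Npc1 (5.87%). The sources used here give no strand setting for the counting, so reads of genes that overlap on opposite strands may also be mixed.

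Per transcript length, on the scale of reads per kilobase of the gene's deposited length and per library size (RPKM), the levels of the 27 genes spread widely. In SL chr8A the highest mean was that of Hmgcs1, 126 ± 1.33 RPKM (SD, n = 3), and the lowest that of Mylip, 2.71 ± 0.084. Behind Hmgcs1 came Sqle (75.1 ± 1.97), Fdps (74.5 ± 0.957) and Srebf2 (73.5 ± 2.34), whose neighbouring levels differed by less than the sum of their SDs. Insig2 (3.50 ± 0.068) and Hsd17b7 (3.86 ± 0.505) stood next to the low end and also differed by less than that sum. In SL2i chr8A many genes held another place. Ebp stood at place 8 there with 27.1 ± 1.17 RPKM (n = 2), against place 21 with 9.53 ± 0.393 RPKM in SL chr8A (n = 3). Soat1 stood at place 25 in SL2i with 3.23 ± 0.538 RPKM, against place 11 with 20.3 ± 0.417 RPKM in SL. Tm7sf2 held place 12 in SL2i and 23 in SL, Lss place 22 in SL2i and 13 in SL, and Mylip place 21 in SL2i and 27 in SL.

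SL2i was set against SL in each line, which describes the medium. Most of the 27 genes were lower in SL2i, among them Srebf2 and enzymes of every stretch of the pathway, and the storage enzyme gene Soat1 fell by more than 6-fold in each line. Ebp, Tm7sf2, Fdps, Fdft1 and Mylip rose in all 3 lines. In numbers, 17 of 27 fell in clone 1, 17 in clone 2 and 18 in chr8A, against 37.1%, 37.2% and 36.8% of all 17178 genes tested. Those that rose were 7 in clone 1, 8 in clone 2 and 6 in chr8A, against 35.9%, 35.8% and 36.1% of all genes. The median log2 fold change of the 27, SL2i over SL, was -0.34 in clone 1, -0.27 in clone 2 and -0.31 in chr8A, against -0.0025, -0.0072 and 0.0009 over all genes. The 17 genes that fell in all 3 lines were Cyp51, Dhcr7, Ggps1, Hmgcs1, Hsd17b7, Idi1, Insig2, Lss, Msmo1, Mvd, Npc1, Nsdhl, Sc5d, Soat1, Sqle, Srebf2 and Stard4. The summed level of the 27 genes was 2072 to 2248 CPM in the 6 SL2i libraries and 2472 to 2804 CPM in the 9 SL libraries of that table, without overlap. A list of 7 trophoblast markers, 5 of which reached 1 CPM in each SL2i group, also moved with the medium, with a summed level of 65.0 to 114 CPM in SL2i and 560 to 776 CPM in SL over the 3 lines. A list of 8 fibroblast markers summed to 9.18 to 11.2 CPM in SL2i, where 3 reached 1 CPM and Col3a1, Dcn and Postn were at 0 in every line, and to 36.0 to 48.1 CPM in SL. The highest of the list in SL2i was Pdgfrb, at a mean of 6.17 to 6.92 CPM. The 7 primitive endoderm markers, 3 of which reached 1 CPM in each SL2i group, summed to 5.41 to 10.5 CPM in SL2i and 20.6 to 25.8 CPM in SL. Called in SL2i were 2 trophoblast markers higher and 4 lower in each line, and 1 fibroblast marker higher and 5 lower. Of the primitive endoderm markers, 0 were called higher and 3 lower in clone 1. In clone 2 and in chr8A, 1 of them was called higher and 3 lower. Of the 10 markers of embryonic stem cells, 8 were called higher and 2 lower in each line. The part of these marker lists in the results was not tested.

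**Figure D1:**
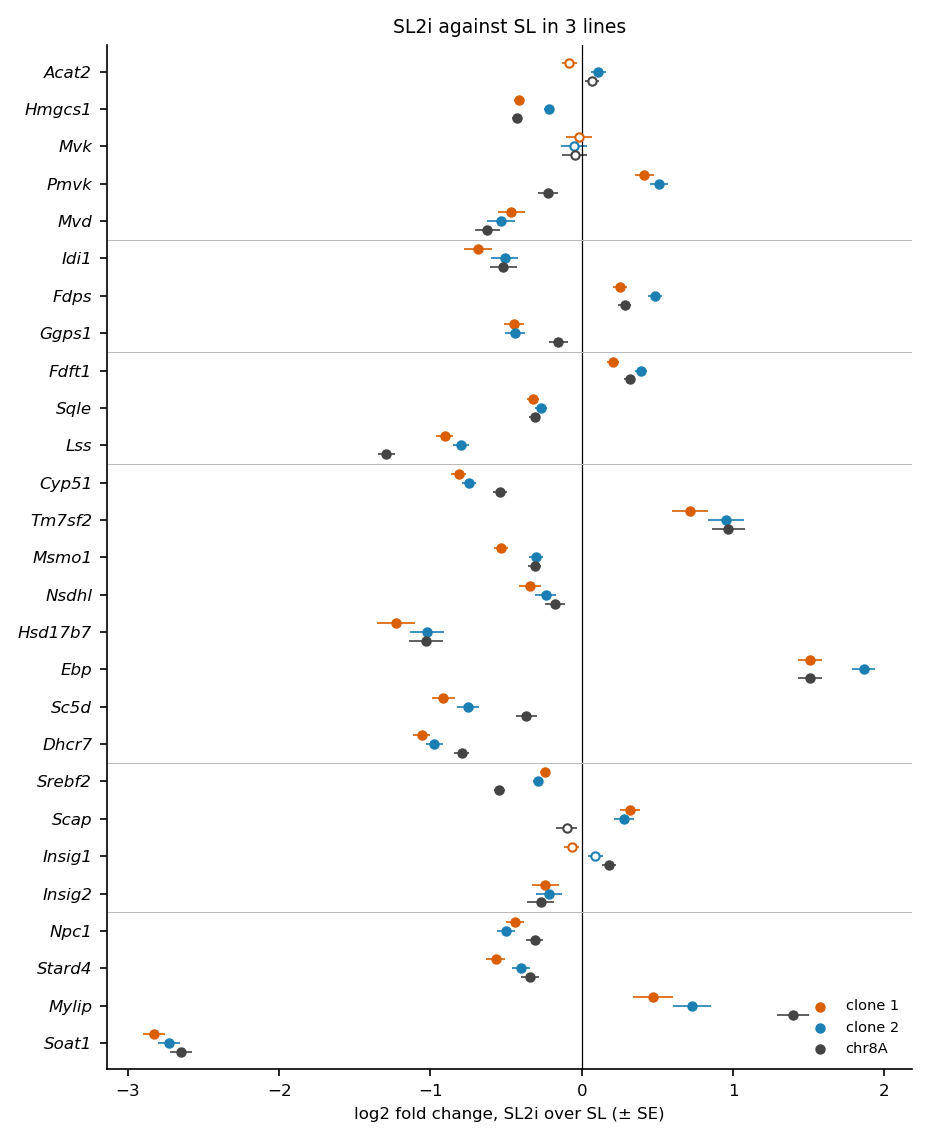
Log2 fold change, SL2i over SL, of each of the 27 genes (x axis) with its standard error, in clone 1, clone 2 and chr8A. Filled points passed edgeR's test at an adjusted p under 0.05, open points did not, and grey lines part the roles. Soat1 lies at -2.82, -2.73 and -2.65, and Ebp at 1.51, 1.86 and 1.51.

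In the mevalonate steps, Hmgcs1, the cytosolic HMG-CoA synthase gene, had 377 and 374 CPM in SL2i clone 1, 399 and 411 in SL2i clone 2, and 390 and 401 in SL2i chr8A. Its SL levels were 493, 508 and 498 CPM in clone 1, 465, 479 and 468 in clone 2, and 532, 527 and 538 in chr8A. Every SL2i library lay below every SL library, whichever the line. The log2 fold change of Hmgcs1, SL2i over SL, was -0.41 ± 0.032 (SE) in clone 1, -0.22 ± 0.032 in clone 2 and -0.43 ± 0.032 in chr8A (adjusted p at most 2.3e-09, quasi-likelihood F test of edgeR, adjusted over all genes by Benjamini and Hochberg's method). Mvd, the decarboxylase gene that ends this stretch, fell by 0.47 ± 0.090, 0.53 ± 0.091 and 0.62 ± 0.086 on the log2 scale in clone 1, clone 2 and chr8A. Pmvk, the phosphomevalonate kinase gene, rose in both clones and fell in chr8A, as described with the clones. Mvk, the mevalonate kinase gene, did not pass in any line, at -0.02 ± 0.088, -0.05 ± 0.087 and -0.05 ± 0.082. Acat2, a thiolase gene at the entry of the pathway, rose by 0.11 ± 0.047 in clone 2 (adjusted p = 0.029), a call that ended under 5 of 11 other settings (adjusted p of 0.073 to 0.52). Among those 5 were the fits without SL clone 2 replicate 3 (0.11), SL2i clone 2 replicate 1 (0.085) and SL2i clone 2 replicate 2 (0.22). In clone 1 Acat2 stood at -0.08 ± 0.049 (adjusted p = 0.13), which passed as lower without the filter on low counts (-0.15, adjusted p = 0.0096). In chr8A it stood at 0.07 ± 0.046 (adjusted p = 0.20).

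In the prenyl diphosphate steps, the genes went both ways. Idi1, which encodes the isomerase of isopentenyl diphosphate, fell by 0.68 ± 0.093, 0.51 ± 0.089 and 0.52 ± 0.089 in clone 1, clone 2 and chr8A. Fdps, the farnesyl diphosphate synthase gene, rose by 0.25 ± 0.047, 0.48 ± 0.046 and 0.28 ± 0.044. Ggps1, which makes geranylgeranyl diphosphate for protein prenylation, fell by 0.45 ± 0.068, 0.44 ± 0.065 and 0.15 ± 0.063, and its call in chr8A (adjusted p = 0.024) ended without SL2i chr8A replicate 2 (adjusted p = 0.10). All 3 genes are among those with shared words.

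Of the 3 genes from farnesyl diphosphate to lanosterol, Lss, the lanosterol synthase gene, moved most. Lss had 57.1 and 53.9 CPM in SL2i clone 1, 59.3 and 54.5 in SL2i clone 2, and 49.3 and 46.2 in SL2i chr8A. In SL it stood at 102, 107 and 103 CPM in clone 1, 96.1, 102 and 98.6 in clone 2, and 115, 119 and 117 in chr8A. All 6 SL2i libraries lay far below all 9 SL libraries. The change, SL2i over SL, was -0.91 ± 0.054 in clone 1, -0.80 ± 0.052 in clone 2 and -1.29 ± 0.053 in chr8A (adjusted p at most 6.4e-27, edgeR). Sqle, the squalene epoxidase gene and a control point of the pathway, fell by 0.32 ± 0.039, 0.27 ± 0.039 and 0.31 ± 0.039. Fdft1, the squalene synthase gene, rose by 0.20 ± 0.040, 0.39 ± 0.039 and 0.32 ± 0.038 in clone 1, clone 2 and chr8A. On the opposite strand, 18.3% of the exon bases of Fdft1 overlap Ctsb, whose log2 fold changes were 0.98 ± 0.040, 1.09 ± 0.039 and 1.07 ± 0.038, and its part in the Fdft1 values was not tested.

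Among the 8 genes that turn lanosterol into cholesterol, 6 fell and 2 rose in each line. Of all genes, 36.8% to 37.2% fell and 35.8% to 36.1% rose. Ebp, the sterol isomerase gene, had 47.8 and 53.5 CPM in SL2i clone 1, 57.0 and 53.8 in SL2i clone 2, and 48.7 and 45.8 in SL2i chr8A. In SL its levels were 18.2, 17.7 and 17.5 CPM in clone 1, 16.7, 14.8 and 14.7 in clone 2, and 15.9, 17.3 and 16.7 in chr8A. Every SL2i library was far above every SL library, and Ebp rose 2.85-fold in clone 1, 3.64-fold in clone 2 and 2.84-fold in chr8A (log2 fold changes of 1.51 ± 0.080, 1.86 ± 0.076 and 1.51 ± 0.078, adjusted p at most 1.7e-33, edgeR). Tm7sf2, a sterol reductase gene, had 21.9 and 15.2 CPM in SL2i clone 1, 17.3 and 17.5 in SL2i clone 2, and 21.5 and 24.7 in SL2i chr8A. In SL the Tm7sf2 values were 10.5, 11 and 12.2 CPM in clone 1, 8.81, 8.84 and 9.21 in clone 2, and 11.3, 12.3 and 11.8 in chr8A. The media did not overlap, though the SL2i clone 1 libraries lay apart from each other, and Tm7sf2 rose by 0.72 ± 0.12, 0.96 ± 0.12 and 0.97 ± 0.11 on the log2 scale. It overlaps Vps51 on the same strand, whose changes of -0.13 ± 0.083, -0.02 ± 0.079 and -0.09 ± 0.079 did not pass.

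Hsd17b7, a sterol ketoreductase gene, had 10.0 and 8.29 CPM in SL2i clone 1, 11.2 and 10.9 in SL2i clone 2, and 10.6 and 10.9 in SL2i chr8A. In SL it had 21.2, 20.5 and 22.5 CPM in clone 1, 20.7, 22.6 and 23.5 in clone 2, and 20.7, 19.9 and 25.2 in chr8A. The SL2i values were below all SL values, and Hsd17b7 fell 2.34-fold in clone 1, 2.03-fold in clone 2 and 2.04-fold in chr8A. Dhcr7, which encodes the reductase of the last step in one branch, had 46.3 and 44.6 CPM in SL2i clone 1, 46.3 and 45.9 in SL2i clone 2, and 57.2 and 59.4 in SL2i chr8A. In SL the Dhcr7 levels were 95.6, 93.5 and 94.6 CPM in clone 1, 90.5, 89.5 and 91.8 in clone 2, and 101, 98.9 and 104 in chr8A. Dhcr7 fell 2.08-fold, 1.96-fold and 1.73-fold in clone 1, clone 2 and chr8A, with no overlap between media (adjusted p at most 2.7e-27, edgeR). Cyp51, the lanosterol demethylase gene, fell by 0.81 ± 0.048, 0.74 ± 0.047 and 0.54 ± 0.046. Sc5d, a sterol desaturase gene, fell by 0.91 ± 0.076, 0.75 ± 0.072 and 0.37 ± 0.068, and Msmo1, a sterol methyl oxidase gene, by 0.53 ± 0.047, 0.30 ± 0.045 and 0.31 ± 0.044. Nsdhl, a sterol decarboxylase gene, fell by 0.34 ± 0.072, 0.24 ± 0.070 and 0.18 ± 0.067, and in chr8A its call (adjusted p = 0.013) ended without SL2i chr8A replicate 2 (adjusted p = 0.29).

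Of the regulators, Srebf2, which encodes SREBP2 itself, had 309 and 324 CPM in SL2i clone 1, 294 and 283 in SL2i clone 2, and 276 and 291 in SL2i chr8A. Its SL levels were 370, 379 and 375 CPM in clone 1, 361, 346 and 350 in clone 2, and 399, 415 and 425 in chr8A. All SL2i libraries lay below all SL libraries, and Srebf2 fell by 0.24 ± 0.034, 0.29 ± 0.034 and 0.54 ± 0.034 on the log2 scale in clone 1, clone 2 and chr8A (adjusted p at most 4.9e-10, edgeR). Insig1, whose product retains SCAP in the endoplasmic reticulum and which is itself a target of SREBP2, rose by 0.18 ± 0.046 in chr8A (adjusted p = 0.00026). In the clones Insig1 did not pass, at -0.07 ± 0.051 in clone 1 (adjusted p = 0.23) and 0.09 ± 0.049 in clone 2 (adjusted p = 0.087). Without the filter on low counts it passed as lower in clone 1 (-0.13, adjusted p = 0.031). Its relative Insig2 fell by 0.24 ± 0.090, 0.22 ± 0.087 and 0.27 ± 0.088. The Insig2 call ended without SL2i clone 1 replicate 1 (adjusted p = 0.087), without SL2i clone 2 replicate 1 (0.10) and without SL2i clone 2 replicate 2 (0.060), each in its own line. Scap, the escort gene, rose in both clones, by 0.32 ± 0.068 and 0.28 ± 0.066, and stood at -0.10 ± 0.071 in chr8A (adjusted p = 0.20). In chr8A the Scap value passed as lower without SL chr8A replicate 1 (-0.16, adjusted p = 0.041) and without the filter on low counts (-0.16, adjusted p = 0.040).

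Among the genes of transport and storage, Soat1, which encodes the enzyme that esterifies cholesterol for storage in droplets, had 14.6 and 16.3 CPM in SL2i clone 1, 15.5 and 14.6 in SL2i clone 2, and 13.7 and 17.4 in SL2i chr8A. In SL it had 112, 107 and 110 CPM in clone 1, 99.4, 99.5 and 100 in clone 2, and 99, 95.2 and 98.3 in chr8A. No SL2i library came near the SL range, and Soat1 fell 7.08-fold in clone 1, 6.62-fold in clone 2 and 6.27-fold in chr8A (log2 fold changes of -2.82 ± 0.073, -2.73 ± 0.072 and -2.65 ± 0.072, adjusted p at most 9.6e-58, edgeR). Mylip, which encodes a ubiquitin ligase that sends lipoprotein receptors for breakdown, had 12.6 and 12.2 CPM in SL2i clone 1, 14.1 and 12.5 in SL2i clone 2, and 28.1 and 25.6 in SL2i chr8A. Its SL values were 8.20, 9.21 and 9.37 CPM in clone 1, 8.00, 7.37 and 8.62 in clone 2, and 9.94, 10.1 and 10.5 in chr8A. The media did not overlap in any line, and Mylip rose 1.39-fold in clone 1, 1.66-fold in clone 2 and 2.63-fold in chr8A.

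Stard4, a soluble carrier of sterols between membranes, had 41.0 and 42.9 CPM in SL2i clone 1, 45.9 and 44.7 in SL2i clone 2, and 54.0 and 52.5 in SL2i chr8A. In SL the Stard4 levels were 65.0, 61.4 and 60.3 CPM in clone 1, 57.2, 61.6 and 60.1 in clone 2, and 67.6, 67.4 and 67.7 in chr8A. SL2i lay below SL throughout, and Stard4 fell by 0.57 ± 0.063, 0.40 ± 0.061 and 0.34 ± 0.058 on the log2 scale. Npc1, whose product exports cholesterol from lysosomes, fell by 0.44 ± 0.061, 0.50 ± 0.059 and 0.31 ± 0.056.

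**Figure D2:**
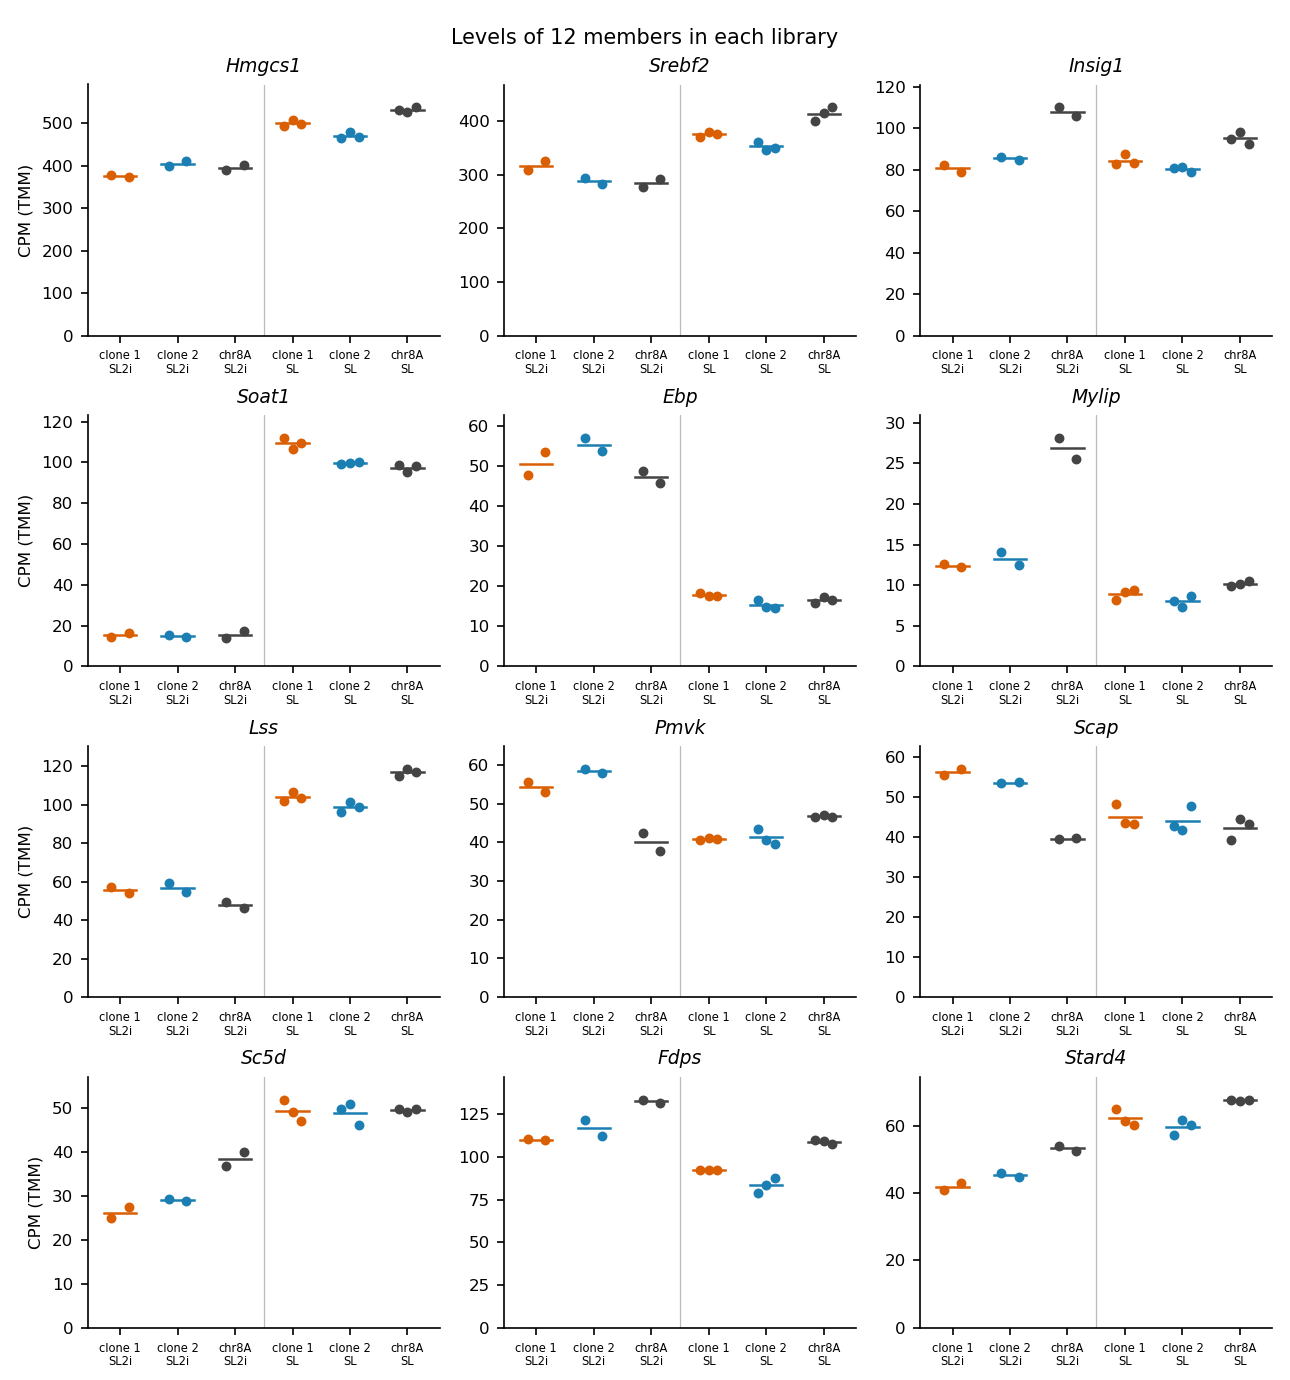
CPM of 12 of the genes in each library (points) with the group mean (line), in clone 1, clone 2 and chr8A, SL2i to the left and SL to the right of the grey line. In Soat1 the SL2i points lie between 13.7 and 17.4 CPM and the SL points between 95.2 and 112 CPM, while in Mylip the SL2i chr8A points, 28.1 and 25.6 CPM, stand above all others.

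The promoter windows of 5 genes are printed because their levels carry the comparison of media or, for Hmgcs1, because it holds the letters of a sterol regulatory element. Each runs from 250 bases before to 50 after the start in the RefSeq table of build GRCm38.p6, 5′ to 3′ on the gene's strand. Positions are chr13:119690101-119690400 (plus strand) for Hmgcs1, chr10:76531355-76531654 (plus strand) for Lss and chrX:8193463-8193762 (minus strand) for Ebp. Soat1 lies at chr1:156474279-156474578 (minus strand) and Mylip at chr13:45389492-45389791 (plus strand). Capitals mark matches, on either strand, to TCACNCCAC (one form of the sterol regulatory element that SREBPs bind), CCAAT (the NF-Y box) and GGGCGG (the Sp1 box). CACGTG (an E-box) has none in these 5.
Hmgcs1: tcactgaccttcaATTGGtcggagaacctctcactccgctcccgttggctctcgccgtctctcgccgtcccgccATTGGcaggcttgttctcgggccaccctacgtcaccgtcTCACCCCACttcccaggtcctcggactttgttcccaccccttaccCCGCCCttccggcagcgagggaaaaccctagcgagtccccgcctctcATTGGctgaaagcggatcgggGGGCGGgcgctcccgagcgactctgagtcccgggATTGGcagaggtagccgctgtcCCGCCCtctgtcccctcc
Lss: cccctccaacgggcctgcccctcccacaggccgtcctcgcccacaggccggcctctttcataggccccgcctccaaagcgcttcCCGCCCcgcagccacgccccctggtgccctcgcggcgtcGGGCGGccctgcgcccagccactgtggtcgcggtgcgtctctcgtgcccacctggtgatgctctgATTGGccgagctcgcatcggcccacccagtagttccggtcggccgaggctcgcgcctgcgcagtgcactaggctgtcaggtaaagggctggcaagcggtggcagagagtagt
Ebp: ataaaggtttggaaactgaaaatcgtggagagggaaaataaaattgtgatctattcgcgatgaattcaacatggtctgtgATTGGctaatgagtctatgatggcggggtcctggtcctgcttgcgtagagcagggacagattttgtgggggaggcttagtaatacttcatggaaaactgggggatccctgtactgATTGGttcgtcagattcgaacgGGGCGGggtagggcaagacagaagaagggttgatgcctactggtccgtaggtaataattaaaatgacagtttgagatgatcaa
Soat1: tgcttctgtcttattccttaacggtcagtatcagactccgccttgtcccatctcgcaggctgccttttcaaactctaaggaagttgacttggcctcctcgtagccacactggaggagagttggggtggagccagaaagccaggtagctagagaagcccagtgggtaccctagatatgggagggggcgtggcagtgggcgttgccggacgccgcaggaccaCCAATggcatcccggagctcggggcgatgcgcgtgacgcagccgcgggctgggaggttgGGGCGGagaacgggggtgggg
Mylip: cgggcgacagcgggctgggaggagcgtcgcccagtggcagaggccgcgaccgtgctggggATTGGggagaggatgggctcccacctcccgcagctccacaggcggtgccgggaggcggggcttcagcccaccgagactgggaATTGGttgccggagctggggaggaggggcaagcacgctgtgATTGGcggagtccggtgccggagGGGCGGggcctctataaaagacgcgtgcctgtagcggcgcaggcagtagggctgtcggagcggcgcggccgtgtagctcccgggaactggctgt
At least 1 window was found for 22 of the 27 genes, and none for Fdps, Fdft1, Sqle, Npc1 and Stard4. Some genes had more than 1 window, and a gene counted if any of its windows held a match. Dhcr7 held CACGTG, and Insig2 and Pmvk held CCAAT, in some but not all of their windows. TCACNCCAC occurred in 1 of the 22, Hmgcs1, as TCACCCCAC. It occurred in 1.44% of 27025 genes with a window and in 1.43% of 13030 tested genes with a window. Only this word was searched, so elements spelled otherwise were not counted in any window. CACGTG occurred in 5 of 22 (Dhcr7, Hsd17b7, Insig1, Sc5d and Scap), against 8.09% of all genes with a window and 11.2% of the tested ones. CCAAT occurred in 20 of 22, in all but Acat2 and Scap, against 41.1% of all genes with a window and 42.8% of the tested ones. GGGCGG occurred in 20 of 22, in all but Ggps1 and Pmvk, against 38.2% and 63.6%. None of these 4 motifs contains another, and a match describes the letters and not a bound site.

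Both clones were set against chr8A in SL, which asks how the pathway stood in lines labelled for the transporter gene. Of the genes that passed, all but Soat1 in clone 1 and all in clone 2 were lower in the clone. Srebf2, Hmgcs1, Fdps, Fdft1, Lss and Insig1 fell in clone 1 and in clone 2, each by less than 1.5-fold. In clone 1, 9 of 27 fell (33.3%), against 7.77% of all genes, 1 rose (Soat1), against 8.83%, and 17 did not pass. In clone 2, 17 fell (63%), against 12.6% of all genes, 0 rose, against 14.3%, and 10 did not pass. The median log2 fold change over chr8A was -0.07 in clone 1 and -0.17 in clone 2, and -0.001 and -0.0003 over all genes. Both comparisons use the same 3 chr8A libraries, so a deviation of those libraries enters both, and the values of the clones are given side by side. The summed level of the 27 genes was 2612 to 2649 CPM in clone 1, 2472 to 2500 in clone 2 and 2741 to 2804 in chr8A. The trophoblast markers summed to 734 to 776 CPM in SL clone 1, 560 to 618 in SL clone 2 and 675 to 698 in SL chr8A. Of the 7, 3 were called higher and 1 lower in clone 1, and 0 higher and 4 lower in clone 2. Of the 10 markers of embryonic stem cells, 2 were called higher and 6 lower in clone 1, and 3 higher and 4 lower in clone 2. The part of both lists was not tested. The SL chr8A libraries also differed most from each other, with a chi-square per degree of freedom of 4.80 to 13.95 between pairs, against 2.09 to 3.88 in clone 1 and 1.87 to 4.44 in clone 2.

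**Figure D3:**
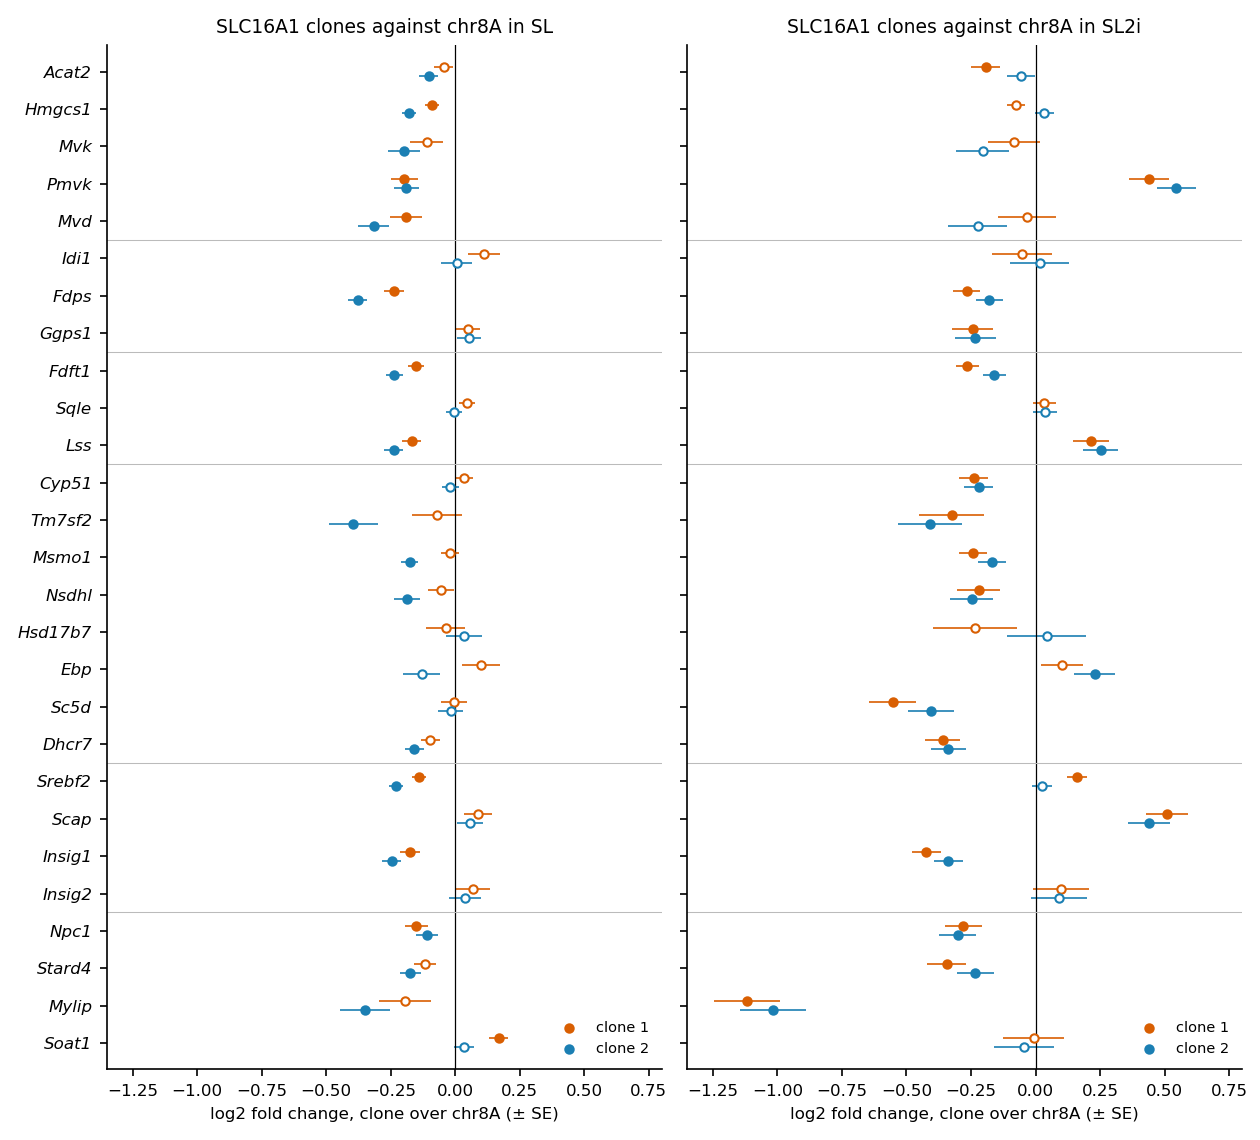
Log2 fold change, clone over chr8A, of each of the 27 genes (x axis) with its standard error, in SL (left) and SL2i (right), for clone 1 and clone 2. Filled points passed edgeR's test at an adjusted p under 0.05 and open points did not. Most filled points lie left of 0, and Mylip in SL2i lies farthest from it, at -1.12 and -1.02.

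In the mevalonate steps in SL, 3 of 5 genes fell in clone 1, against 7.77% of all genes, and all 5 in clone 2, against 12.6%. Hmgcs1, with the SL values given above, was lower in every clone library than in every chr8A library. Its log2 fold change was -0.09 ± 0.027 in clone 1 (adjusted p = 0.011) and -0.18 ± 0.027 in clone 2 (adjusted p = 6.9e-08, edgeR). Pmvk had 40.5, 41.1 and 40.9 CPM in clone 1, 43.4, 40.7 and 39.7 in clone 2, and 46.6, 47.2 and 46.6 in chr8A. All clone libraries lay below chr8A, at -0.20 ± 0.051 in clone 1 (adjusted p = 0.0029) and -0.19 ± 0.049 in clone 2 (adjusted p = 0.0015). Mvd had 28.9, 31.3 and 32.7 CPM in clone 1, 30.3, 27.9 and 27.4 in clone 2, and 33.5, 36.2 and 36.1 in chr8A. These did not overlap either, and Mvd fell by 0.19 ± 0.062 in clone 1 (adjusted p = 0.022) and 0.32 ± 0.060 in clone 2 (adjusted p = 1.4e-05). In clone 2, Mvk also fell, by 0.20 ± 0.062, and Acat2 by 0.10 ± 0.037. In clone 1 they stood at -0.11 ± 0.065 and -0.05 ± 0.038 and did not pass. The Hmgcs1 call in clone 1 ended without SL clone 1 replicate 1 (adjusted p = 0.078) and replicate 3 (0.052) and without the filter (0.075). That of Mvd ended without SL clone 1 replicate 1 (0.19), SL chr8A replicate 2 (0.082) and SL chr8A replicate 3 (0.069) and with DESeq2 (0.088). In clone 2, Mvk ended without SL clone 2 replicate 3 (0.093), and Acat2 without SL chr8A replicate 3 (0.13), SL clone 2 replicate 1 (0.051) and SL clone 2 replicate 3 (0.11) and without the filter (0.055).

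Further along the pathway in SL, Fdps had 92.4, 92.2 and 92.2 CPM in clone 1, 78.9, 83.5 and 87.4 in clone 2, and 110, 109 and 107 in chr8A. The groups did not overlap, and Fdps fell by 0.24 ± 0.037 in clone 1 (adjusted p = 4.5e-07) and 0.38 ± 0.036 in clone 2 (adjusted p = 3.6e-15, edgeR). Fdft1 fell by 0.15 ± 0.033 and 0.24 ± 0.032, while the Ctsb gene that overlaps it stood at -0.11 ± 0.035 and -0.15 ± 0.034. Lss fell by 0.17 ± 0.037 and 0.24 ± 0.036, and all its clone libraries lay below chr8A. Idi1, Ggps1 and Sqle did not pass in either clone. None of the 8 genes after lanosterol passed in clone 1, where 7.77% of all genes fell and 8.83% rose. The adjusted p there was lowest for Dhcr7 (-0.10 ± 0.037, adjusted p = 0.060, and 0.030 with only the groups compared in the fit). In clone 2, Tm7sf2 fell by 0.40 ± 0.095, Nsdhl by 0.19 ± 0.050, Msmo1 by 0.18 ± 0.034 and Dhcr7 by 0.16 ± 0.036, and Cyp51, Hsd17b7, Ebp and Sc5d did not pass. Of all genes, 12.6% fell and 14.3% rose in clone 2.

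Of the regulators in SL, Srebf2 was lower in every clone library than in chr8A, at -0.14 ± 0.028 in clone 1 (adjusted p = 8.3e-05) and -0.23 ± 0.028 in clone 2 (adjusted p = 7.8e-11, edgeR). Insig1 had 82.7, 87.5 and 83.3 CPM in clone 1, 81.0, 81.2 and 79.1 in clone 2, and 95, 98.5 and 92.6 in chr8A. The clone libraries lay below chr8A, and Insig1 fell by 0.18 ± 0.038 in clone 1 and 0.25 ± 0.037 in clone 2. Scap and Insig2 did not pass, with log2 fold changes between 0.04 and 0.09. Stard4 stood at -0.12 ± 0.044 in clone 1 (adjusted p = 0.052), which passed under 4 of 12 other settings, among them the fit without SL clone 1 replicate 1 (adjusted p = 0.032), and fell by 0.17 ± 0.042 in clone 2 (adjusted p = 0.00081). Npc1 fell by 0.15 ± 0.043 and 0.11 ± 0.041. Its call in clone 1 ended without SL clone 1 replicate 2 (adjusted p = 0.081). In clone 2 the Npc1 call (adjusted p = 0.037) ended under 7 of 12 settings, namely without any 1 of the 3 SL chr8A libraries (0.058 to 0.065), without SL clone 2 replicate 2 (0.093) or 3 (0.079), without the filter (0.073) and with DESeq2 (0.064). Mylip fell by 0.35 ± 0.098 in clone 2 (adjusted p = 0.0036) and stood at -0.19 ± 0.10 in clone 1 (adjusted p = 0.20). Soat1 rose by 0.17 ± 0.038 in clone 1 (adjusted p = 0.00062) and stood at 0.03 ± 0.037 in clone 2 (adjusted p = 0.55).

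In SL2i more of the 27 genes passed as lower than as higher in each clone, while 9 in clone 1 and 10 in clone 2 did not pass. Mylip fell about 2-fold in each clone, and Sc5d, Insig1, Dhcr7 and Stard4 fell by smaller amounts. Pmvk, Scap and Lss rose in clone 1 and in clone 2. Of 27 genes, 14 fell in clone 1 (51.9%), against 12.1% of all genes, and 4 rose (14.8%), against 10.4%. In clone 2, 13 fell (48.1%), against 10.8%, and 4 rose (14.8%), against 9.74%. The median log2 fold change was -0.22 in clone 1 and -0.17 in clone 2, and -0.0036 and -0.0021 over all genes. The 2 chr8A libraries in SL2i are again shared by both comparisons. Each group had 2 libraries here, and 11 of 18 calls in clone 1 and 8 of 17 in clone 2 held under all 10 other settings. In clone 1, without SL2i clone 1 replicate 2, 8 genes fell and 4 rose. In clone 2, 8 fell and 3 rose without SL2i chr8A replicate 1, and 7 fell and 4 rose without SL2i clone 2 replicate 2. The higher calls in clone 2 were 2 without SL2i chr8A replicate 2 and 2 without SL2i clone 2 replicate 1. Over all genes, leaving out 1 library gave 2572 to 3055 calls in clone 1, against 3853 with all libraries. In clone 2 it gave 2358 to 2811, against 3531. The trophoblast markers summed to 111 to 114 CPM in SL2i clone 1, 110 CPM in both SL2i clone 2 libraries, and 65.0 to 69.8 CPM in SL2i chr8A. Of the 7, 3 were called higher and 1 lower in each clone. Of the 10 markers of embryonic stem cells, 3 were called higher and 3 lower in clone 1, and 3 higher and 2 lower in clone 2. The part of both lists was not tested.

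The SL2i values of Mylip given above show chr8A at about double the level of the clones, with no clone library above 14.1 CPM. Mylip fell 2.17-fold in clone 1 (log2 fold change -1.12 ± 0.13, adjusted p = 6.5e-12) and 2.02-fold in clone 2 (-1.02 ± 0.13, adjusted p = 1.3e-10, edgeR). Sc5d had 24.9 and 27.4 CPM in clone 1, 29.2 and 28.8 in clone 2, and 36.9 and 40.0 in chr8A. All clone values lay below chr8A, and Sc5d fell by 0.55 ± 0.091 in clone 1 and 0.41 ± 0.089 in clone 2. Insig1 had 82.4 and 79.0 CPM in clone 1, 86.3 and 84.8 in clone 2, and 110 and 106 in chr8A, again without overlap. It fell by 0.42 ± 0.056 in clone 1 (adjusted p = 1.3e-09) and 0.34 ± 0.055 in clone 2 (adjusted p = 6.5e-07). Dhcr7 fell by 0.36 ± 0.069 and 0.34 ± 0.068, and Npc1 by 0.28 ± 0.072 and 0.30 ± 0.071, in clone 1 and clone 2. Stard4 fell by 0.34 ± 0.075 in clone 1 and by 0.23 ± 0.073 in clone 2, where its call (adjusted p = 0.013) ended without SL2i chr8A replicate 1 and without SL2i clone 2 replicate 2 (adjusted p = 0.11 each).

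Pmvk had 55.7 and 53.2 CPM in SL2i clone 1, 59.0 and 58.0 in SL2i clone 2, and 42.3 and 37.8 in SL2i chr8A. The clones were above chr8A, by 0.44 ± 0.077 in clone 1 (adjusted p = 2.5e-06) and 0.55 ± 0.076 in clone 2 (adjusted p = 5.5e-09, edgeR). Scap had 55.4 and 57.1 CPM in SL2i clone 1, 53.6 and 53.7 in SL2i clone 2, and 39.4 and 39.7 in SL2i chr8A. Here too the groups were apart, and Scap rose by 0.51 ± 0.081 in clone 1 and 0.44 ± 0.081 in clone 2. Lss rose by 0.22 ± 0.069 in clone 1 (adjusted p = 0.015) and 0.25 ± 0.069 in clone 2 (adjusted p = 0.0033). The Lss call ended without SL2i chr8A replicate 2 in clone 1 (adjusted p = 0.14) and clone 2 (0.071), without SL2i clone 1 replicate 1 (0.14) and without SL2i clone 2 replicate 1 (0.12). Srebf2 rose by 0.16 ± 0.039 in clone 1 (adjusted p = 0.0007) and stood at 0.02 ± 0.039 in clone 2 (adjusted p = 0.73). Ebp rose by 0.23 ± 0.081 in clone 2 (adjusted p = 0.030), a call that ended under 4 of 10 settings, at adjusted p of 0.054 without SL2i chr8A replicate 1, 0.22 without SL2i chr8A replicate 2, 0.23 without SL2i clone 2 replicate 1 and 0.062 with DESeq2. In clone 1 Ebp stood at 0.10 ± 0.082.

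Of the other genes that fell in SL2i, Fdps stood at -0.27 ± 0.052 in clone 1 and -0.18 ± 0.051 in clone 2, and Fdft1 at -0.26 ± 0.044 and -0.16 ± 0.044. Cyp51 stood at -0.24 ± 0.058 and -0.22 ± 0.057, Msmo1 at -0.24 ± 0.054 and -0.17 ± 0.053, and Ggps1 at -0.24 ± 0.080 and -0.23 ± 0.079. Nsdhl stood at -0.22 ± 0.084 and -0.25 ± 0.084, and Tm7sf2 at -0.33 ± 0.12 and -0.41 ± 0.13. Acat2 fell in clone 1 (-0.19 ± 0.056) and stood at -0.06 ± 0.055 in clone 2, where it did not pass. Many of these calls ended when 1 library was left out, and in clone 1 that of Nsdhl ended under 7 and that of Tm7sf2 under 6 of 10 other settings. In clone 1, the calls of Acat2, Cyp51, Ggps1, Msmo1, Nsdhl and Tm7sf2 ended without SL2i clone 1 replicate 2 (adjusted p of 0.052 to 0.82). Those of Acat2, Ggps1 and Nsdhl ended without SL2i chr8A replicate 1 (0.12, 0.15 and 0.56), those of Msmo1 and Tm7sf2 without SL2i chr8A replicate 2 (0.10 and 0.39), and that of Ggps1 without SL2i clone 1 replicate 1 (0.058). In clone 2, Fdps, Ggps1, Msmo1, Nsdhl and Tm7sf2 ended without SL2i clone 2 replicate 2 (0.061 to 0.27). Cyp51, Fdps, Ggps1 and Nsdhl ended without SL2i chr8A replicate 1 (0.052 to 0.43), Ggps1, Msmo1 and Tm7sf2 without SL2i chr8A replicate 2 (0.057 to 0.46), and Nsdhl and Tm7sf2 without SL2i clone 2 replicate 1 (0.064 and 0.059). Hmgcs1 (-0.07 ± 0.036 and 0.03 ± 0.036), Mvk, Mvd, Idi1, Sqle, Hsd17b7, Insig2 and Soat1 did not pass in either clone.

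Whether the response to the medium differed between a clone and chr8A was tested as an interaction, the change from SL to SL2i in the clone less that in chr8A. Among the genes that passed, the largest differences were those of Pmvk, positive in clone 1 and in clone 2, and of Mylip, negative in clone 1 and in clone 2. In clone 1 the difference was positive for 4 of 27 genes, against 7.78% of all genes, and negative for 7, against 9.24%. In clone 2 it was positive for 7, against 7.69%, and negative for 4, against 9.18%. The median difference was -0.15 in clone 1 and 0.01 in clone 2 on the log2 scale, and -0.0033 and -0.01 over all genes. The 5 chr8A libraries enter both interactions. Of the 11 calls in each clone, 6 held under all 16 other settings in clone 1 (Lss, Pmvk, Scap, Srebf2, Mylip and Sc5d), and 6 in clone 2 (Hmgcs1, Lss, Pmvk, Scap, Srebf2 and Mylip). Without SL2i clone 1 replicate 2, the difference in clone 1 was positive for 4 genes and negative for 2. In clone 2 it was negative for 2 genes without SL clone 2 replicate 3 and for 2 without SL2i chr8A replicate 1. Over all genes these fits called 2010 in clone 1, against 2925, and 2542 and 2142 in clone 2, against 2898.

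**Figure D4:**
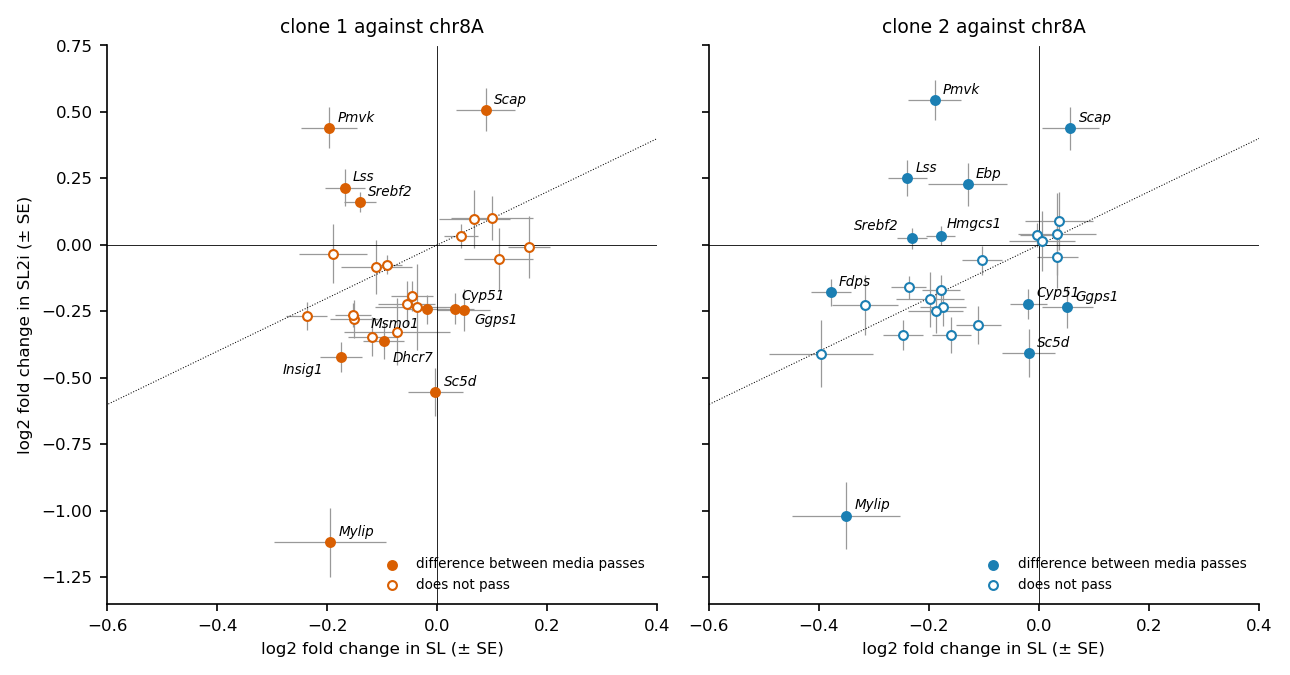
Log2 fold change, clone over chr8A, in SL2i (y axis) against that in SL (x axis), each with its standard error, for clone 1 (left) and clone 2 (right), with one point per gene. The dotted line marks equal values in both media, filled points passed the test of the difference between media, and open points did not. Pmvk lies farthest above the line and Mylip farthest below it.

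Pmvk showed the largest positive difference. SL2i over SL was 0.41 ± 0.065 in clone 1, 0.51 ± 0.062 in clone 2 and -0.22 ± 0.066 in chr8A, so Pmvk was higher in SL2i in the clones and lower in chr8A. The differences were 0.64 ± 0.093 in clone 1 (adjusted p = 3.7e-08) and 0.73 ± 0.090 in clone 2 (adjusted p = 1.3e-10, edgeR). The fall of Pmvk in chr8A (adjusted p = 0.0018) ended without SL2i chr8A replicate 2 (adjusted p = 0.082). Scap differed by 0.42 ± 0.098 in clone 1 and 0.38 ± 0.096 in clone 2. Lss fell in SL2i in all lines but less in the clones, by 0.38 ± 0.078 in clone 1 (adjusted p = 8.6e-05) and 0.49 ± 0.077 in clone 2 (adjusted p = 3.4e-07). Srebf2 likewise fell less in the clones, by 0.30 ± 0.048 (adjusted p = 4.4e-07) and 0.26 ± 0.048 (adjusted p = 1.8e-05).

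Mylip showed the largest negative difference, -0.92 ± 0.17 in clone 1 (adjusted p = 7.7e-06) and -0.67 ± 0.16 in clone 2 (adjusted p = 0.0011, edgeR), since its rise in SL2i was smaller in the clones. Sc5d fell more in the clones, with a difference of -0.55 ± 0.10 in clone 1 and -0.39 ± 0.10 in clone 2, and its call in clone 2 (adjusted p = 0.0027) ended without SL2i chr8A replicate 2 (adjusted p = 0.058). Cyp51 differed by -0.27 ± 0.067 and -0.20 ± 0.066, while Akap9, which overlaps it on the opposite strand over 3.76% of its exon bases, differed by -0.31 ± 0.081 and -0.25 ± 0.079. The Cyp51 call ended without SL2i clone 1 replicate 2 in clone 1 (adjusted p = 0.10), and in clone 2 with DESeq2 or without any 1 of 4 libraries, among them SL2i chr8A replicate 1 (adjusted p = 0.18). Insig1 differed by -0.25 ± 0.068 in clone 1 (adjusted p = 0.0051) and -0.09 ± 0.067 in clone 2 (adjusted p = 0.40). The Insig1 call in clone 1 ended without SL2i chr8A replicate 1 (adjusted p = 0.065) and without SL2i clone 1 replicate 2 (0.095). Hmgcs1 differed by 0.02 ± 0.045 in clone 1 (adjusted p = 0.88) and 0.21 ± 0.045 in clone 2 (adjusted p = 0.00016). Stard4 did not pass, at -0.23 ± 0.087 in clone 1 (adjusted p = 0.058) and -0.06 ± 0.084 in clone 2.

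The clones were also set against each other, a comparison without chr8A. In SL, 6 of 27 genes were lower in clone 2 than in clone 1, against 2.71% of all genes, and 0 were higher, against 1.69%. They were Tm7sf2 (-0.32 ± 0.10, adjusted p = 0.045), Msmo1 (-0.16 ± 0.035, adjusted p = 0.0017), Fdps (-0.14 ± 0.038, adjusted p = 0.015), Soat1 (-0.13 ± 0.038, adjusted p = 0.024), Hmgcs1 (-0.09 ± 0.027, adjusted p = 0.041) and Srebf2 (-0.09 ± 0.028, adjusted p = 0.046, all edgeR). Over all 27 genes, called or not, the clone 2 libraries lay below the clone 1 libraries for 13, against 10.1% of all genes. The median over the 27 genes was -0.07, and 0.0055 over all genes. Msmo1 had 127, 139 and 134 CPM in SL clone 2 and 143, 153 and 150 CPM in SL clone 1, and its call was the one that held under all 12 other settings. Leaving out SL clone 1 replicate 1, 2 or 3 gave counts of 1, 3 and 1, and leaving out SL clone 2 replicate 1, 2 or 3 gave counts of 3, 3 and 2. Over all genes the same fits called 371 to 603, against 756 with all libraries. The trophoblast markers summed to 560 to 618 CPM in SL clone 2 and 734 to 776 CPM in SL clone 1. In clone 2, 1 trophoblast marker was called higher and 2 lower. Of the 10 markers of embryonic stem cells, 5 were called higher in clone 2 and 0 lower. Their part was not tested.

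In SL2i, 0 of 27 genes passed between clone 2 and clone 1 with edgeR, against 0.157% of all genes in either direction, 0.0873% higher and 0.0699% lower. At an unadjusted p under 0.05 stood 4 of them: Hmgcs1 (0.11 ± 0.036), Acat2 (0.14 ± 0.056) and Fdft1 (0.10 ± 0.045) were on the higher side in clone 2 and Srebf2 (-0.14 ± 0.039, adjusted p = 0.14) on the lower. Over all 17178 genes, 1414 stood under that p. The median log2 fold change, clone 2 over clone 1, was 0.04 over the 27 genes and 0.0032 over all genes. DESeq2 called 1 gene, Srebf2 (adjusted p = 0.036). Over all genes, DESeq2 gave an adjusted p to only 1525 and called 43 of them. Srebf2 had 294 and 283 CPM in SL2i clone 2 and 309 and 324 CPM in SL2i clone 1.

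LbNOX cells were set against vector cells in SL, which asks whether the pathway's transcripts differ when an added enzyme oxidizes NADH. None of the 27 genes passed with edgeR or with DESeq2, against 0.0372% of all 16119 genes in either direction with edgeR, 0.0062% higher and 0.031% lower. With DESeq2, 15 of all 16119 genes passed. Before adjustment, 1 of the 27 had a p under 0.05 with edgeR, against 605 of all 16119 genes. The median log2 fold change was -0.03, with a range of -0.15 to 0.04, and 0 over all genes. For 2 of 27 genes every LbNOX library lay below every vector library (Srebf2 and Nsdhl), against 4.68% of all genes, and for 0 above, against 4.96%. Srebf2 had 273, 261 and 274 CPM in LbNOX cells and 291, 279 and 294 CPM in vector cells. It was the gene with the unadjusted p under 0.05 (-0.10 ± 0.040, adjusted p = 1). Hmgcs1 had 341, 340 and 354 CPM in LbNOX cells and 343, 360 and 342 CPM in vector cells, which overlapped (-0.01 ± 0.039). Insig1 had 64.6, 63.8 and 61.1 CPM in LbNOX cells and 63.2, 67.5 and 65.3 CPM in vector cells, also overlapping (-0.05 ± 0.053). Stard4 had 55.5, 50.2 and 63.7 CPM in LbNOX cells and 52.5, 62.8 and 55.3 CPM in vector cells (-0.01 ± 0.091). A p that misses the threshold does not show that the levels were equal. Taken as the estimate ± 1.96 SE, the interval reached lowest for Mylip, to -0.45, and for Dhcr7, to -0.30 on the log2 scale. LbNOX libraries did not all lie on one side: 21, 24 and 10 of the 27 genes stood below the vector mean in LbNOX replicates 1, 2 and 3, against 17, 3 and 22 in vector replicates 1, 2 and 3.

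**Figure D5:**
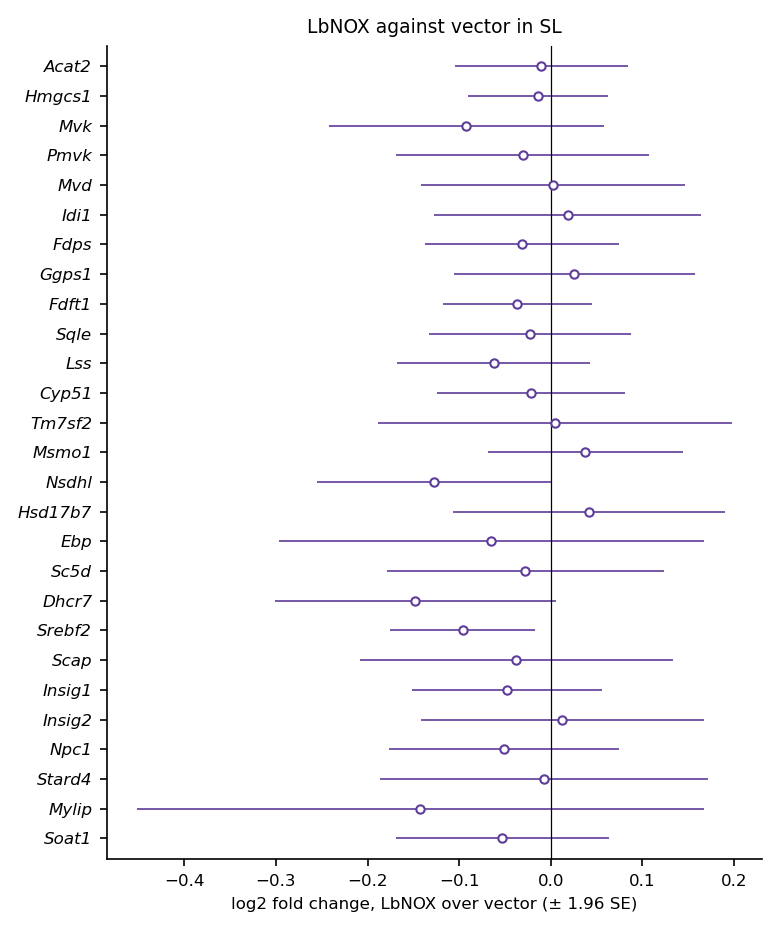
Log2 fold change, LbNOX over vector in SL, of each of the 27 genes (x axis) with bars of ± 1.96 SE. No gene passed edgeR's test, and the estimates lie between -0.15 and 0.04.

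Other genes of sterol and isoprenoid metabolism were followed in 6 lists that hold none of the 27. Between LbNOX and vector cells, and between clone 2 and clone 1 in either medium, 0 genes of any of the 6 lists passed with edgeR. Of all 17178 genes, 35.8% to 36.1% rose and 36.8% to 37.2% fell in SL2i against SL in the 3 lines, the shares beside which the counts of the lists stand. Against chr8A, the shares of all genes that rose and fell were 8.83% and 7.77% for clone 1 and 14.3% and 12.6% for clone 2 in SL. In SL2i they were 10.4% and 12.1% for clone 1 and 9.74% and 10.8% for clone 2. For the interaction they were 7.78% and 9.24% in clone 1 and 7.69% and 9.18% in clone 2.

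Of 9 genes of lipoprotein uptake and lysosomal egress, 6 rose in SL2i in clone 1, 7 in clone 2 and 5 in chr8A, and 2 fell in each line. Npc2, a lysosomal cholesterol carrier that works with the Npc1 product, rose by 1.15 ± 0.040, 1.2 ± 0.038 and 1.42 ± 0.036, where Npc1 fell. In SL, 3 of the 9 fell in clone 1 and 5 in clone 2, and 0 and 1 rose. Apoe, a lipoprotein component, fell by 0.27 ± 0.030 and 0.25 ± 0.029 there. In SL2i, Npc2 fell by 0.50 ± 0.041 in clone 1 and 0.41 ± 0.041 in clone 2, while Apoe rose by 0.20 ± 0.036 and 0.11 ± 0.036. Counts for this list in SL2i were 2 up with 2 down for clone 1, and 1 up with 1 down for clone 2. The interaction passed upward for 1 gene of this list in clone 1 and 4 in clone 2, and downward for 2 and 1.

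Of 9 tested genes of sterol efflux and oxysterol enzymes, 4 rose and 5 fell in SL2i in each line. The efflux pump gene Abca1 rose by 1.48 ± 0.11 in clone 1, 1.5 ± 0.10 in clone 2 and 0.91 ± 0.11 in chr8A, so its rise was larger in the clones by 0.58 ± 0.15 (adjusted p = 0.0027) and 0.60 ± 0.15 (adjusted p = 0.0012, edgeR). Abcg1, another efflux pump gene, averaged 3.36 ± 0.475 CPM in SL2i clone 1, 2.83 ± 0.0764 in SL2i clone 2 and 8.99 ± 0.69 in SL2i chr8A (SD, n = 2 each). It fell there by 1.42 ± 0.21 in clone 1 and 1.67 ± 0.22 in clone 2 on the log2 scale, and in SL by 0.61 ± 0.10 and 0.54 ± 0.097. Its interaction was -0.81 ± 0.24 and -1.13 ± 0.24. Against chr8A, 2 genes of the list fell and 0 rose in each clone in SL, and 2 fell and 1 rose in each clone in SL2i. The interaction passed upward for 1 gene and downward for 1 in each clone.

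Among 13 other regulators of SREBP and of sterol sensing, SL2i raised 5 and lowered 4 for clone 1, 4 and 4 for clone 2, and 6 and 5 for chr8A. Pgrmc1 fell by 0.83 ± 0.050, 0.81 ± 0.049 and 0.97 ± 0.052 in clone 1, clone 2 and chr8A. Against chr8A in SL, the list had 3 genes up and 2 down in each clone. Its SL2i counts were 3 up and 2 down for clone 1, and 2 up and 1 down for clone 2. Srebf1, the gene of the sister factor SREBP1, fell in SL by 0.14 ± 0.043 in clone 1 and 0.16 ± 0.042 in clone 2, and in SL2i by 0.29 ± 0.062 and 0.38 ± 0.062. The interaction passed for 0 genes of this list in clone 1, and for 1 upward (Mbtps1, 0.15 ± 0.051) and 1 downward (Srebf1, -0.22 ± 0.075) in clone 2.

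Of 7 tested genes in a list of other sterol and ketone body enzymes, 4 rose and 3 fell in SL2i in clone 1, 2 and 3 in clone 2, and 3 and 3 in chr8A. Lbr, which encodes a second sterol reductase of the step that Tm7sf2 serves, fell by 0.83 ± 0.037, 0.78 ± 0.037 and 0.55 ± 0.035, where Tm7sf2 rose. Against chr8A, 1 gene fell and 0 rose in each clone and medium. That gene was Aacs in SL (-0.21 ± 0.050 and -0.27 ± 0.048) and Lbr in SL2i (-0.25 ± 0.043 and -0.28 ± 0.042). The interaction passed downward for Lbr in clone 1 (-0.29 ± 0.051) and clone 2 (-0.24 ± 0.051), and upward for 1 gene in clone 1, Aacs (0.28 ± 0.091).

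Of 12 genes of the isoprenoid branches, which make the ubiquinone and dolichol chains and attach prenyl groups to proteins, 5 rose in SL2i in each line, and 4, 4 and 3 fell in clone 1, clone 2 and chr8A. Fntb, a farnesyltransferase subunit gene, rose by 1.03 ± 0.051, 0.97 ± 0.049 and 1.09 ± 0.050. The SL counts were 2 up and 2 down for clone 1, and 3 up and 3 down for clone 2. Coq2, of the ubiquinone branch, fell by 0.31 ± 0.053 in clone 2. In SL2i, 1 fell in each clone and 0 rose, Fnta in clone 1 (-0.14 ± 0.053) and Rabggta in clone 2 (-0.28 ± 0.076). The interaction passed for 0 genes in clone 1 and for 1 in clone 2, Rabggtb (0.21 ± 0.060). Of 9 genes of sterol transfer at membrane contacts, 4 rose and 3 fell in SL2i in each line. Gramd1b, a sterol carrier gene, rose by 1.23 ± 0.061, 1.11 ± 0.059 and 1.07 ± 0.060, and Osbpl9 by 1.05 ± 0.055, 1.09 ± 0.052 and 0.79 ± 0.053. In SL, 2 fell in each clone and 0 rose, with Gramd1a at -0.26 ± 0.058 in clone 1 and -0.35 ± 0.055 in clone 2. The SL2i counts were 2 up and 0 down for clone 1, and 1 up (Osbpl9, 0.22 ± 0.059) with 1 down (Gramd1a, -0.22 ± 0.074) for clone 2. The interaction passed for Osbpl9 alone of this list, 0.26 ± 0.076 in clone 1 and 0.30 ± 0.074 in clone 2.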

How the data were processed

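Per the labels' protocols, total RNA (500 ng per library, RIN of at least 9.3) was poly(A) selected and made into libraries with a stranded kit, with 8 cycles of PCR. DRAGEN 3.10, featureCounts and Subread, with the build GRCm39, are named per the submitters' processing notes. The deposited tables hold the authors' raw counts per gene, with no normalization, and were fitted separately. Symbols and gene lengths came from the tables. No per-sample column was left over (0 columns of other samples).

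The test was the robust quasi-likelihood F test of edgeR 4.0.16 in R 4.3.3, after filterByExpr and TMM scaling and with 1 mean per group, on 16119 genes over 6 libraries and 17178 genes over 15. P-values were adjusted by Benjamini-Hochberg over all genes of a comparison. A gene was called at an adjusted p under 0.05. Standard errors are the log2 fold change divided by the square root of F. RPKM used the deposited lengths. The steps were tested on simulated data. No 2 libraries of a group agreed within sampling noise (chi-square per degree of freedom of 1.87 or more).

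The 27 genes, the lists and the rules were chosen with earlier results of these data known. Named with full values were, per comparison, the 4 called genes with the largest absolute change, with Hmgcs1, Srebf2, Insig1 and Stard4 always included. Sc5d and Scap, which this rule picks for the interactions, are given by library in SL2i only. Up to 2 genes per list with the smallest adjusted p were also named. Slc16a1 checked the labels. Some further genes were given by their change alone. The values of 1 list gene that the rule picks are not reported here.

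Shared 30-base words and exon overlaps came from GENCODE M21, on an older build than the authors', so no coordinates were taken from it. Promoter windows came from RefSeq (GRCm38.p6). Their positions are on that build, not on that of the counts.

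Alternatives were RLE factors, DESeq2 1.42.0, dropping the filter, keeping genes with 1 CPM in 3 libraries, the replicate number as a block, a fit on just the groups compared (table of the clones), and leaving out each library in turn. Leaving out both SL vector replicate 2 and SL LbNOX replicate 3 was added after the data were seen.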

Additional observations from a re-analysis of the deposited data

Results flagged for a closer look

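The change from SL to SL2i differed between a clone and chr8A, by the interaction test of edgeR with Benjamini-Hochberg adjustment, for 11 genes in each clone. All values are log2 differences, clone less chr8A, and both clones use the same chr8A libraries.

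In clone 1 the difference was positive for Pmvk (0.64), Scap (0.42), Lss (0.38) and Srebf2 (0.30). It was negative for Mylip (-0.92), Sc5d (-0.55), Ggps1 (-0.29), Cyp51 (-0.27), Dhcr7 (-0.26), Insig1 (-0.25) and Msmo1 (-0.22). In clone 2 it was positive for Pmvk (0.73), Lss (0.49), Scap (0.38), Ebp (0.36), Srebf2 (0.26), Hmgcs1 (0.21) and Fdps (0.20), and negative for Mylip (-0.67), Sc5d (-0.39), Ggps1 (-0.28) and Cyp51 (-0.20).

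Without SL2i clone 1 replicate 2, the clone 1 calls of Ggps1, Cyp51, Dhcr7, Insig1 and Msmo1 ended (adjusted p of 0.095 to 0.18). Ggps1 and Insig1 also ended without SL2i chr8A replicate 1 (0.12 and 0.065), Dhcr7 and Msmo1 without SL2i chr8A replicate 2 (0.092 and 0.29), and Ggps1 without SL2i clone 1 replicate 1 (0.051). In clone 2, Fdps ended without SL clone 2 replicate 1 (0.059) and SL2i clone 2 replicate 1 (0.19), Ebp without SL2i chr8A replicate 2 (0.064) and SL2i clone 2 replicate 1 (0.071), and Ggps1 without SL clone 2 replicate 3 (0.093), SL2i chr8A replicate 1 (0.13) and SL2i clone 2 replicate 2 (0.20). Sc5d ended without SL2i chr8A replicate 2 (0.058). Cyp51 ended without SL chr8A replicate 2 (0.083), SL clone 2 replicate 3 (0.085), SL2i chr8A replicate 1 (0.18) and SL2i clone 2 replicate 1 (0.16), and with DESeq2 (0.052). Outliers within a group were not looked for, since each group had 2 or 3 libraries.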

How the results depend on the processing

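No call of any of the 27 genes changed sign under any setting. Over all settings and comparisons, 126 gene values lost a call, 16 gained one, and 145 values that passed in neither fit changed sign. The count of called genes moved by over 1.5 times in a few comparisons. For clone 2 against chr8A in SL2i, leaving out 1 library gave 11 to 13 calls, against 17 with all libraries. Over all genes the same fits gave 2358 to 2811 calls, against 3531. For clone 2 against clone 1 in SL, leaving out 1 library gave 1 to 3, against 6. Over all genes it gave 371 to 603, against 756. For the interaction in clone 1 it gave 6 to 11, against 11, with 6 without SL2i clone 1 replicate 2. Over all genes it gave 2010 to 2822, against 2925, with 2010 without that library. For clone 2 against clone 1 in SL2i, DESeq2 called 1 gene and edgeR 0. Over all genes, DESeq2 called 43 of the 1525 to which it gave an adjusted p, and edgeR called 27 of 17178. Leaving out both SL vector replicate 2 and SL LbNOX replicate 3 left 0 calls between LbNOX and vector. RLE in place of TMM moved the median of all genes by under 0.1 in every comparison.

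Libraries with the same replicate number did not deviate together, so the numbers were not taken as pairs. The correlation was -0.04 to 0.05 over 33 pairs of the clone table. It was -0.16 to 0.13 over 3 pairs of the LbNOX table, and over 0.1 in 1 of them. The highest correlation in the LbNOX table, 0.28, was between unlike numbers, SL vector replicate 2 and SL LbNOX replicate 3. With a block for the number, 11 genes were called for clone 1 against chr8A in SL, against 10, and the count was equal in the 11 other comparisons (0 for LbNOX, 24, 24 and 25 for the media in chr8A, clone 1 and clone 2). Over all genes, the block gave 3024 calls for clone 1 against chr8A in SL, against 2850 without it. The SL2i libraries held 9784408 to 10908368 counts each, with 2 libraries a group, which limits what small changes there can show.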

Other observations

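Some neighbours that overlap these genes on the opposite strand moved otherwise. Against chr8A in SL, Rmc1, which overlaps Npc1, rose by 0.17 ± 0.054 in clone 1 and 0.15 ± 0.051 in clone 2, where Npc1 fell by 0.15 ± 0.043 and 0.11 ± 0.041. Akap9, which overlaps Cyp51, rose there by 0.15 ± 0.041 in clone 1 and 0.24 ± 0.039 in clone 2, where Cyp51 stood at 0.03 ± 0.035 and -0.02 ± 0.034. In SL2i against SL, both neighbours fell with their partners. Rmc1 fell by 0.58 ± 0.076 in clone 1, 0.55 ± 0.073 in clone 2 and 0.31 ± 0.073 in chr8A, and Akap9 by 0.76 ± 0.058, 0.70 ± 0.055 and 0.45 ± 0.055. Arid4b overlaps Ggps1 on the opposite strand, over 5.44% of the exon bases of Ggps1. Arid4b fell in SL2i by 0.28 ± 0.062 in clone 1 and 0.14 ± 0.058 in clone 2, and did not pass in chr8A (-0.05 ± 0.059). Its interaction passed in clone 1 (-0.24 ± 0.086) and not in clone 2 (-0.09 ± 0.083). The part of Arid4b in the Ggps1 values was not tested.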
